A study of Ramazzottius varieornatus with 27 samples.

Results

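The earliest sampling of the time course, 4 h after 500 Gy of 60Co gamma ray, was set against the non-irradiated control, in the tardigrade Ramazzottius varieornatus. The samples were chosen by their labels and comprised 6 of the 27 libraries, with 3 at 4 h and 3 control libraries. Each library was made from the whole bodies of 30 animals. The irradiated animals were kept at 22 °C on agar until sampling, and the other 21 libraries covered 7 later times from 6 h to 24 h. The replicates are technical replicates by the study's account, and no repeat of the irradiation is described, so p-values measure only the spread between these samples. No sampling time is given for the control, so time on the plate and time after irradiation cannot be told apart. The methods give 15 cycles of PCR for the 4 h libraries, and give no number under the name of the control.

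Gamma rays break DNA strands and split water into reactive oxygen species. In animals in general, cells answer such damage within hours by changing the transcription of genes for DNA repair, cell cycle arrest and defence against oxidants. Tardigrades are known to survive doses far above those that kill most animals, and R. varieornatus is a terrestrial species that also survives drying. The transcript IDs of the deposited table matched 0 of the names in a reference table of 23164 genes of this species, so no role is given to a transcript here, lists of repair or antioxidant genes could not be matched, and the tissue could not be checked by markers. No sequence of the transcripts was used here. For the same reason only the leading pair of transcripts in each direction is named, and the others are given by rank, count and range.

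The values are TMM-normalized TPM, in which the reads of each transcript are divided by its length and by the total of the library, and libraries are then scaled to each other. The table held 14532 transcripts of 13920 genes, and 12820 of them, of 12353 genes, reached 1 in 3 or more of the 27 libraries and were tested. There were 300 transcripts that reached this level in exactly 3 libraries, with a median highest value of 2.49, and 412 that reached it in exactly 2 libraries and were left out, with a median highest value of 2.03. The number of transcripts above 0 was 12867 to 13561 in the 4 h libraries and 11556 to 13325 in the control libraries, with the lowest number in control replicate 3. TPM values keep no number of reads, so the depth of each library is unknown from these values. The libraries were compared on the log2(value + 1) scale, on which the change of a low transcript is understated. Across the transcripts tested, Pearson's r was 0.965 to 0.977 between 4 h libraries, 0.947 to 0.972 between control libraries and 0.940 to 0.970 between a 4 h and a control library, and transcripts are not independent replicates. The median SD of a transcript was 0.211 at 4 h and 0.269 in control.

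At 4 h the transcripts called were few, and nearly as many were higher as were lower. A call needed an adjusted p under 0.05 by limma and group means that differed over 2-fold. By this rule 32 transcripts were higher at 4 h than in control and 34 were lower, 66 in all, or 0.515% of those tested (0.25% higher and 0.265% lower). The log2 fold changes of the higher transcripts had a median of 1.59 and ranged from 1.01 to 4.33. Those of the lower transcripts had a median of -1.66 and ranged from -4.05 to -1.16. Over all transcripts tested the median log2 fold change was 0.05, and the middle 90% of them lay between -0.76 and 0.80. Whole animals were sampled, so a lower value from fewer cells of a type and one from less RNA per cell cannot be told apart.

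**Figure D1:**
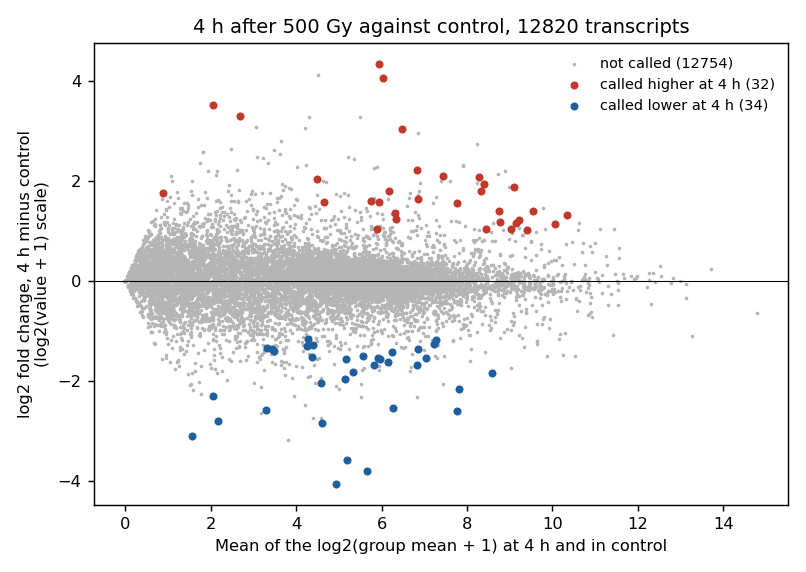
Log2 fold change at 4 h against control for each of the 12820 transcripts tested (vertical axis, log2(value + 1) scale), over the mean of the log2 group means (horizontal axis). Red points are the 32 transcripts called higher and blue points the 34 called lower; the grey points are the transcripts not called, which spread most at low values.

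A further 25 transcripts passed the adjusted p but not the ratio, 17 of them higher and 8 lower at 4 h. Conversely, 1531 transcripts had a ratio of means over 2 and an adjusted p that missed 0.05. The thresholds divided values that lay close together, since the highest adjusted p among the called transcripts was 0.0493 and the lowest among those over 2-fold but not called was 0.0510 (limma). The lowest ratio among the called transcripts was 2.02, and the highest among those that passed the adjusted p alone was 1.98. Before adjustment, 1091 transcripts (8.51%) had p under 0.05, with 605 higher and 486 lower. With 3 libraries against 3, an exact two-sided permutation test cannot go below 0.10, so the calls draw on the spread of all groups and transcripts that limma shares.

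The number of calls depended on single libraries. It was 30 without 4 h replicate 2, 33 without control replicate 1 and 38 without control replicate 3. It was 129 (58 higher and 71 lower) when the groups of 9 h, 18 h and 24 h were left out of the fit. The median SD of a transcript was 0.413, 0.380 and 0.353 in those groups and 0.211 to 0.273 in the other 6. Of the 66 transcripts, 26 were called in the same direction with each of the 6 libraries left out in turn, 17 of the higher and 9 of the lower ones.

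The pair of transcripts with the largest rises on the log2(value + 1) scale were 21.7 and 17.5 times their control means at 4 h. The transcript g7792.t1 was at 264, 347 and 208 in the 4 h libraries, against 9.58, 15.1 and 13.1 in the control libraries. Every 4 h library lay above every control library, and 4 h replicate 2 was the highest. Its mean was 273 ± 69.9 at 4 h and 12.6 ± 2.78 in control (SD, n = 3 each), with a log2 fold change of 4.33 with a standard error of 0.37 (adjusted p = 1.68e-07 by limma). The transcript g7793.t1, next to it by ID number, was at 259, 309 and 226 at 4 h, against 12.7, 13.1 and 19.5 in control. Again no libraries of the 2 groups overlapped, which the rule for naming required of both transcripts, and 4 h replicate 2 was the highest. Its mean was 265 ± 41.8 at 4 h and 15.1 ± 3.79 in control (SD, n = 3 each), with a log2 fold change of 4.06 with a standard error of 0.28 (adjusted p = 7.04e-09 by limma). Both genes have 1 transcript model. Whether the 2 genes lie side by side or share sequence, between whose copies RSEM would divide reads, was not tested. Among the 66 called genes, 3 pairs had consecutive ID numbers, and in 2 of these pairs both transcripts were higher at 4 h.

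The pair with the largest falls on this scale that held without each library had control means 14.6 and 12.4 times those at 4 h. The transcript g4159.t1 was at 15.6, 14.1 and 8.32 in the 4 h libraries, against 232, 166 and 158 in the control libraries. All 4 h libraries lay far below the lowest control library, and the rule for naming required them to lie below it. Its mean was 12.7 ± 3.87 at 4 h and 186 ± 40.5 in control (SD, n = 3 each), with a log2 fold change of -3.79 with a standard error of 0.61 (adjusted p = 0.00179 by limma). The transcript g12770.t1 was at 15.1, 8.26 and 6.12 at 4 h, against 146, 104 and 115 in control. In both transcripts 4 h replicate 1 was the highest and replicate 3 the lowest of the 4 h libraries. The mean of g12770.t1 was 9.81 ± 4.67 at 4 h and 122 ± 22.3 in control (SD, n = 3 each), with a log2 fold change of -3.57 with a standard error of 0.50 (adjusted p = 0.000346 by limma). The largest fall of all, from 1 other transcript, had a log2 fold change of -4.05 with a standard error of 0.84 (adjusted p = 0.0213 by limma). It was called in 1 of the 6 fits that left out a library, so it is not among the named ones.

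Many transcripts of both sets were well expressed in control, which the rule for calls favours. Changes of low transcripts are understated on the log2(value + 1) scale, and a large fall needs a control value well above 0. The control mean had a median of 73.9 for the 32 higher transcripts and of 86.4 for the 34 lower ones, against 27.0 over all transcripts tested. A control mean of at least 100 was found for 15 of the 32 (46.9%) and 16 of the 34 (47.1%), against 16.5% of all tested. The median 4 h mean was 317 for the higher transcripts and 18.9 for the lower ones. The 32 higher transcripts together made up 1.37%, 1.55% and 1.48% of the summed values in the 4 h libraries, against 0.520%, 0.538% and 0.538% in the control libraries. The 34 lower ones made up 0.113% to 0.116% in the 4 h libraries, against 0.401% to 0.416% in the control libraries. Neither range overlapped that of the control, as the calls themselves set.

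**Figure D2:**
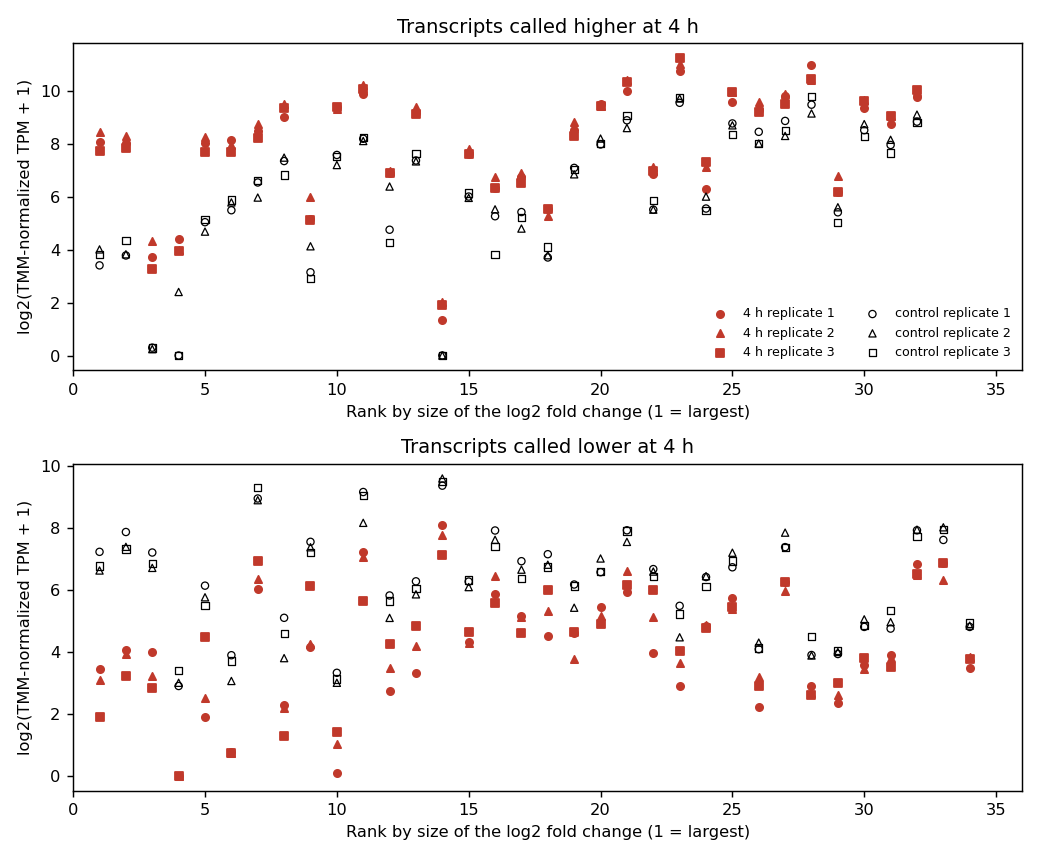
Values of the 32 transcripts called higher (top) and the 34 called lower (bottom) in the 3 libraries of 4 h (red, filled) and the 3 control libraries (black, open), as log2(TMM-normalized TPM + 1), ordered by the size of the log2 fold change. In every transcript shown the 4 h libraries lie on one side of all control libraries, which the calls favour, against 19.1% of all tested. The 4 h values of several lower transcripts lie far apart.

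Among the higher transcripts, the ratio of the 4 h mean to the control mean was over 3 in 16, over 5 in 5 and over 10 in 4, of the 31 with a control value above 0, and the median ratio was 3.00. The third by rank had the largest ratio of means, 64.0, over very low control values. It was at 12.3, 19.2 and 8.74 in the 4 h libraries, against 0.228, 0.182 and 0.218 in the control libraries (limma, log2 fold change 3.51 with a standard error of 0.55, adjusted p = 0.00130). The fourth was at 19.9, 14.7 and 14.3 at 4 h, and was listed at 0 in control replicates 1 and 3 and at 4.28 in control replicate 2. It was called in 2 of the 6 fits that left out a library. The fifth was at 260, 304 and 206 at 4 h, against 31.8, 24.6 and 34.3 in control, and had the lowest adjusted p of all transcripts tested at 1.09e-10 (limma, log2 fold change 3.04, standard error 0.16). At the other end, the smallest rise had a log2 fold change of 1.01. Even there the 3 libraries of 4 h lay above those of control, which the calls favour, against 10% of all tested.

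The 4 h libraries did not rank evenly among the higher transcripts. In 22 of the 32, 4 h replicate 2 was the highest of the 3 libraries, and in 5 each it was replicate 1 or replicate 3. Over all transcripts tested replicate 2 was the highest in 29.9%, replicate 1 in 34.9% and replicate 3 in 34.5%. Among the lower transcripts the highest 4 h library was replicate 3 in 15 of 34, replicate 1 in 13 and replicate 2 in 5. The 4 h libraries of the lower transcripts were more spread than those of control. Their median SD of log2(value + 1) was 0.44 at 4 h and 0.24 in control, and from 0.27 (15 h) to 0.41 (21 h) in the later groups. These transcripts lay lower at 4 h than in control (median of the group means 18.9 and 86.4), and an effect of this level on the spread was not tested. For the higher transcripts the median SD was 0.23 at 4 h and 0.24 in control. The highest 4 h library was over 2 times the lowest in 13 of the 34 lower transcripts and 2 of the 32 higher ones, against 26.4% of all tested. The fifth fall by rank shows this spread, at 2.71, 4.73 and 21.2 in 4 h replicates 1, 2 and 3, against 69.3, 53.2 and 44.3 in control.

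Among the lower transcripts, the ratio of the control mean to the 4 h mean was over 3 in 18, over 5 in 8 and over 10 in 4, of the 33 with a 4 h value above 0, with a median of 3.03. The sixth by rank had a ratio of 16.2, above those of the named falls, at low values. It was nearly the same in each 4 h library, at 0.700, 0.673 and 0.669, against 13.8, 7.33 and 12.0 in control (limma, log2 fold change -2.80 with a standard error of 0.32, adjusted p = 1.52e-05). The fourth by rank was listed at 0 in every 4 h library, against 6.44, 7 and 9.47 in control, and it alone of the 66 belongs to a gene with a second transcript model. That other model was at 3.66, 2.25 and 4.20 at 4 h and was listed at 0 in every control library. RSEM divides the reads that models share, and summed over both models the gene was at 3.37 at 4 h and 7.64 in control, a log2 fold change of -0.996 with a standard error of 0.61 (adjusted p = 0.730 by limma), which is not a call. This transcript is therefore uncertain as a fall of the gene.

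Presence or absence differed rarely. There were 5 transcripts listed at 0 in every control library and at 1 or more in every 4 h library, with 4 h means of 1.70 to 3.54, and 1 of them was called. The reverse was found for 1 transcript, the fall with a second model. By contrast, the 2 groups did not overlap in 1283 transcripts that were higher at 4 h (10%) and in 1170 that were lower (9.13%), 19.1% of those tested together. All 32 and 34 called transcripts are among these, as the calls favour, so nothing is read from that count.

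By 12 h most rises were lower than at 4 h, and by 24 h most falls still lay below control. All comparisons with the control use the same 3 control libraries, and the transcripts were chosen on their values at 4 h, which by itself favours values nearer to control at other times. For the 31 higher transcripts with a control value above 0, the median of the group mean, as a share of the control mean, was 300% at 4 h and 223% at 6 h. It was 190% at 9 h and 107% at 12 h, while the later times had medians of 130% (15 h), 103% (18 h), 95.3% (21 h) and 84.9% (24 h). The group mean was highest at 4 h in 28 of the 32, against 12.7% of all tested, and at 9 h in the other 4, against 13.96% of all tested. The choice of members at 4 h favours the first of these counts. Every 6 h library was still above every control library in 26 of the 32, against 19.4% of all tested. The number was 21 for the 9 h libraries (17.7% of all tested), 12 for those of 12 h (23.2%) and 6 for those of 24 h (18.1%), so at 24 h it was near the share of all transcripts. For the 34 lower transcripts the median share was 32.1% at 4 h and 24.4% at 6 h. It was 41.2% at 9 h and 33.4% at 12 h, while the later times had medians of 37.7% (15 h), 38.1% (18 h), 54.6% (21 h) and 45.3% (24 h). The group mean was lowest at 6 h in 16 of the 34 (5% of all tested), and at 4 h and 12 h in 6 each (6.48% and 7.53%). In 23 of the 34 every 24 h library was below every control library, against 19.4% of all tested. The falls were not tested as a set at 24 h. The libraries had 15 cycles of PCR at 4 h, 21 at 9 h to 21 h and 23 at 24 h. Time and cycle number therefore cannot be told apart between 4 h and the times from 9 h on, or between 24 h and the others. From 9 h to 21 h the cycle number was the same.

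**Figure D3:**
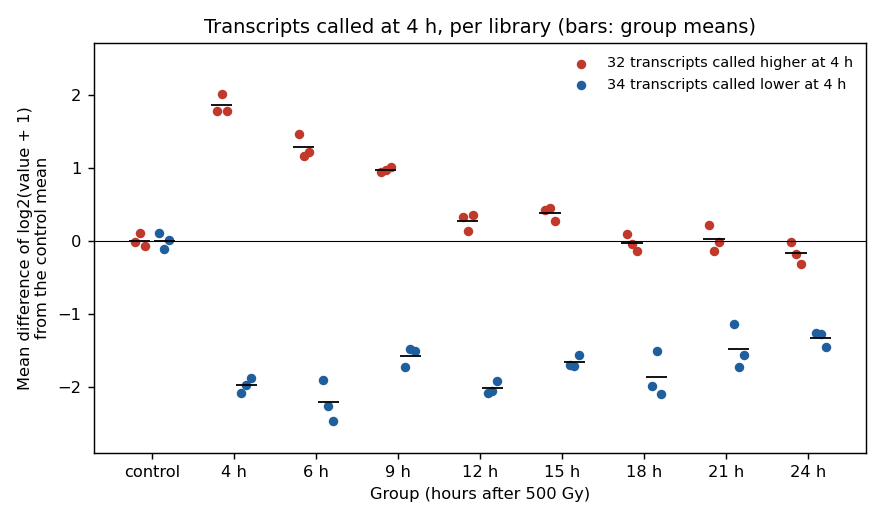
Mean over the 32 transcripts called higher at 4 h (red) and over the 34 called lower (blue) of the difference of log2(value + 1) from the control mean, for each library of each group in order of time, with bars at the group means. The higher set lies at 1.77 to 2.01 in the 4 h libraries and at -0.32 to -0.02 in the 24 h libraries, and the lower set at -2.09 to -1.88 in the 4 h libraries and at -1.46 to -1.26 in the 24 h libraries.

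The difference from 4 h was tested in 2 contrasts in which the control does not enter. The 4 h libraries on which the transcripts were chosen do enter, which by itself favours a move back towards control in both contrasts. Between 6 h and 4 h, 2 of the 66 transcripts were called, both lower at 6 h, where 0.203% of all tested were called. Of these, 1 was a rise that moved back towards control and 1 was a fall that moved further from it. The number called was 0 to 6 over the alternatives tried, and 0 when each fit held just the compared groups. The log2 difference (6 h minus 4 h) had a median of -0.47 over the 32 higher transcripts, of -0.22 over the 34 lower ones and of 0.02 over all tested, and it was below 0 in 30 of the 32. Between 12 h and 4 h, 25 of the 32 higher transcripts were lower at 12 h and 0 were higher, where 3.54% of all tested were called lower and 1.37% higher (4.91% in all). Their median log2 difference (12 h minus 4 h) was -1.37, against -0.09 over all tested. Of the 34 lower transcripts, 3 were lower still at 12 h, 4 were higher, and 27 were not called, with a median log2 difference of -0.01. The number of the called transcripts that differed between 12 h and 4 h was 32 in all, 16 without 4 h replicate 2, 20 without 4 h replicate 1, and 60 with the groups of 9 h, 18 h and 24 h left out of the fit, each counted over the transcripts called at 4 h in the same fit.

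The 12 h libraries had 21 cycles of PCR and the 4 h libraries 15, so time and cycle number cannot be told apart in that contrast. At 6 h, where replicates 1 and 2 had 15 cycles and replicate 3 had 21, the summed value of the 32 higher transcripts was 12983 and 10787 with 15 cycles and 11780 with 21. The total of all values was 1057510 and 1042570 with 15 cycles and 951024 with 21, so these sums do not rank the libraries by share. At 9 h, all with 21 cycles, the sum was 11049 to 11529. In the control it was 5747 to 5929. For the 34 lower transcripts the sum at 6 h was 1170 and 1005 with 15 cycles and 845 with 21. An effect of cycle number was not tested.

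The named rises are given over time first. The mean of g7792.t1 was 178 ± 51.0 in the 6 h libraries, 78.3 ± 14.5 in those of 9 h, 33.0 ± 11.7 in those of 12 h and 21.2 ± 1.42 in those of 24 h (SD, n = 3 each). Its log2 difference was -3.05 for 12 h minus 4 h with a standard error of 0.37 (adjusted p = 2.39e-05 by limma). The mean of g7793.t1 was 233 ± 52.7 in the 6 h libraries, 204 ± 12.8 in those of 9 h, 72.4 ± 30.3 in those of 12 h and 42.7 ± 9.10 in those of 24 h (SD, n = 3 each), and it had a log2 difference of -1.93 for 12 h minus 4 h with a standard error of 0.28 (adjusted p = 0.000152 by limma). At 9 h the 3 libraries of g7793.t1 (192, 202 and 217) and those of g7792.t1 (64.2, 93.1 and 77.5) were below all of their 4 h libraries. No test of 9 h against 4 h was run, and the courses of the 2 transcripts were not tested against each other. Between 6 h and 4 h neither was called, with log2 differences of -0.62 (standard error 0.37) for g7792.t1 and -0.20 (standard error 0.28) for g7793.t1. At 24 h every library of g7793.t1 was still above the control libraries, with a log2 fold change against control of 1.44 with a standard error of 0.28 (adjusted p = 0.000628 by limma). For g7792.t1 the log2 fold change at 24 h was 0.73 with a standard error of 0.37 (adjusted p = 0.158 by limma), although its libraries there, at 19.7 to 22.5, also lay above those of control.

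Both named falls were still far below control at 24 h. The mean of g4159.t1 was 12.0 ± 2.56 in the 6 h libraries, 3.72 ± 0.901 in those of 12 h and 13.3 ± 1.26 in those of 24 h (SD, n = 3 each). Between 12 h and 4 h its log2 difference was -1.51 with a standard error of 0.61 (adjusted p = 0.102 by limma), which is not a call. The mean of g12770.t1 was 10.9 ± 2.00 in the 6 h libraries, 7.90 ± 5.07 in those of 12 h and 10.04 ± 4.58 in those of 24 h (SD, n = 3 each), with a log2 difference of -0.35 for 12 h minus 4 h with a standard error of 0.50 (adjusted p = 0.722 by limma). The highest library of g12770.t1 at any time from 4 h on was at 25.3 (18 h), below the lowest control library at 104.

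**Figure D4:**
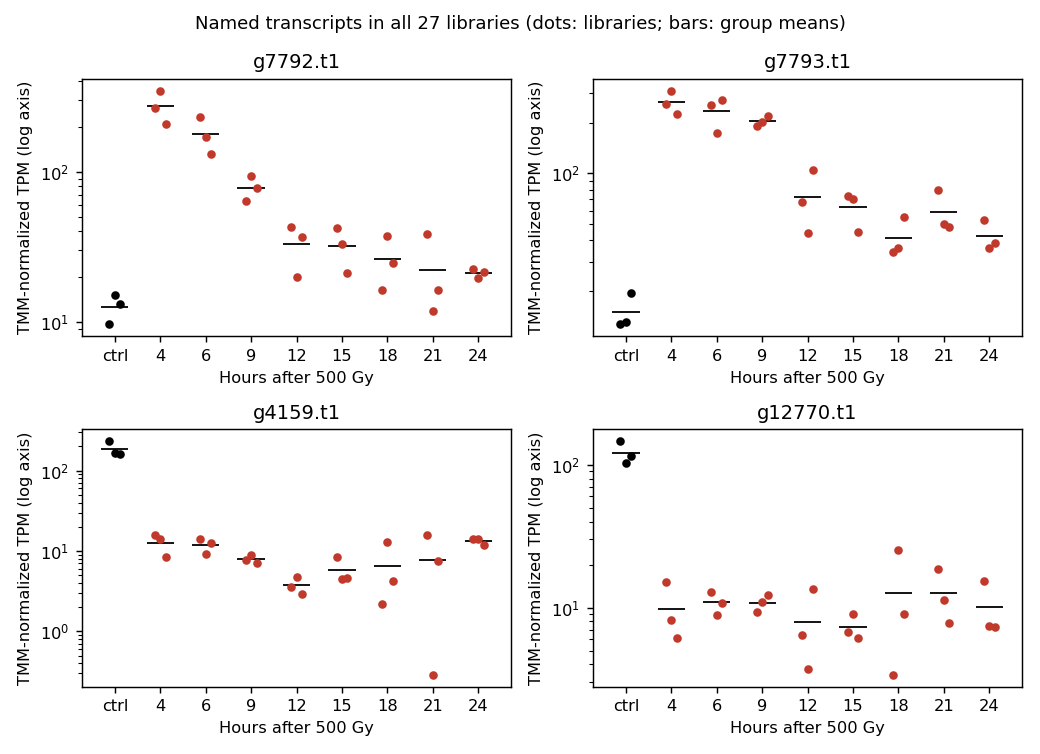
TMM-normalized TPM of g7792.t1, g7793.t1, g4159.t1 and g12770.t1 in every library (dots, log axis), for control and each time after 500 Gy, with bars at the group means. The means of g7792.t1 and g7793.t1 were 273 and 265 at 4 h and 21.2 and 42.7 at 24 h, and those of g4159.t1 and g12770.t1 were still at 13.3 and 10.04 at 24 h, against 186 and 122 in control.

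The other falls were described by size. The group means of the 4 transcripts whose fall at 4 h was over 10-fold were 4.69% to 8.94% of the control mean (6 h), 2.00% to 6.50% (12 h) and 1.05% to 8.26% (24 h), and every library at these 3 times lay below every control library, against 14.9% (6 h), 22.2% (12 h) and 19.4% (24 h) of all tested. The median of the 29 others with a value above 0 at 4 h was 33.5% of the control mean (4 h), 25.0% (6 h), 35.6% (12 h) and 49.8% (24 h). At 24 h they ranged from 8.05% to 147% of the control mean, 12 of them were at over 2 times their 4 h mean, and 18 of the 29 had all libraries below all control libraries. The groups of 4 and 29 were set by size at 4 h and their difference was not tested.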

How the data were processed

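By the methods, the authors aligned single-end reads to R. varieornatus coding sequences using bowtie2, obtained TPM from RSEM through Trinity, and scaled the libraries by TMM. The deposited signal values are on this scale (TMM-normalized TPM) and are not counts. The authors tested counts with DESeq2. The table analysed here holds TMM-normalized TPM, so values were compared as log2(value + 1) in R 4.3.3 with limma 3.58.1, with all 27 libraries in 1 fit of 9 group means, a mean-variance trend and Benjamini-Hochberg adjustment over the 12820 transcripts tested. Transcripts under 1 in all but 2 or fewer libraries were left out. The threshold for a call was 0.05 for the adjusted p, together with group means over 2-fold apart. Named transcripts were the 2 largest rises and 2 largest falls among those called in every fit that left out 1 of the 6 libraries, with groups that did not overlap. The members, tests and rules were chosen with earlier results of these data known. The fit was tested on simulated data. The alternatives were another pseudocount (0.1 or 5), another or no filter, 2-group fits, a fit without 9 h, 18 h and 24 h, no TMM factor, quantile normalization, a replicate block, no trend, other fold rules, summed models, each library left out and, added after the data were seen, a fit without 9 h replicate 1. Plots were made in matplotlib 3.10.9 under Python 3.11.15. The paper's own comparisons and enrichment table were not used here.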

Additional observations from a re-analysis of the deposited data

Results flagged for a closer look

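The change against control differed between 4 h and a later time for some of the transcripts called at 4 h, by the limma test of the later time against 4 h. It did so for 2 transcripts at 6 h, where 0.203% of all tested were called, and for 32 at 12 h, where 4.91% were. At 12 h both named rises were among them, with log2 differences (12 h minus 4 h) of -3.05 for g7792.t1 and -1.93 for g7793.t1. The transcripts were chosen on their 4 h values, which by itself favours a move back towards control. Of those that differed, 1 at 6 h and 3 at 12 h were falls that moved further from control. The number of PCR cycles also differed between 12 h and 4 h. Of the 32 transcripts called higher at 4 h, 10 were below every control library in each 24 h library, against 19.4% of all tested, and for these the difference between 24 h and 4 h was not tested.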

How the results depend on the processing

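The 4 named transcripts kept their direction and their call in each of 17 alternatives, with log2 fold changes of 3.97 to 4.51 for g7792.t1, 3.75 to 4.24 for g7793.t1, -3.95 to -3.43 for g4159.t1 and -3.90 to -3.13 for g12770.t1. For the 6 alternatives that left out a library, the rule for naming had set this in advance. The number of calls at 4 h against control was 129 (58 higher, 71 lower) in the fit without 9 h, 18 h and 24 h, where 65 of the 66 calls were kept. With a pseudocount of 5 there were 55 lower calls, and with no fold threshold 49 higher ones. With each of the 6 libraries left out, 30 to 58 were called, 18 to 32 of them higher and 12 to 32 lower. The number of called transcripts that differed between 6 h and 4 h was 0 with only the 2 groups in the fit, with the TMM factor undone or with no trend, 1 with a pseudocount of 0.1, with no filter, with quantile normalization or with a replicate block, 4 with no fold threshold and 6 without 9 h, 18 h and 24 h. It was 0 to 2 with each library left out. The number that differed between 12 h and 4 h was 60 of 129 without 9 h, 18 h and 24 h. With each library left out it was 16 to 32, with 16 of 30 without 4 h replicate 2. The counts for 6 h and 12 h were over the transcripts called at 4 h in the same fit, so they also follow the length of that list. With the replicate block, 57 were called at 4 h (28 higher, 29 lower), 55 of them among the 66. With only the 2 groups compared in the fit, 51 were called (26 higher, 25 lower), and 35 of them were among the 66. The adjusted p of the 4 named transcripts was 0.00374 to 0.0142 in that fit (limma). The deviations of same-numbered libraries at 4 h and in control had correlations of -0.00, 0.01 and -0.16 across transcripts. Those of differently numbered libraries had correlations of -0.14 to 0.14, so the same-numbered ones did not stand out. These 2 groups alone were compared, which cannot show whether the replicate numbers pair libraries. The count of groups that do not overlap was 3418 to 4078 with each library left out, where fewer libraries make overlap less likely. The deposited values keep no depth, which limits what a value of 0 shows. The causes of these shifts were not tested.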
